A study of Mus musculus with 6 samples.

Results

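In all, 9 genes of the STAT and interferon regulatory factor (IRF) families were followed in mLPS1, a mouse line of dedifferentiated liposarcoma, a tumour of the fat lineage. They were chosen by symbol, 3 STAT genes (Stat2, Stat3, Stat6) and 6 IRF genes (Irf1, Irf2, Irf3, Irf5, Irf7, Irf9), and all 9 were found among the 14472 genes measured, each on a single row. The series compares 3 RNA-seq libraries of mLPS1 labelled wild type with 3 of the same line labelled NICD Knockout, NICD being the Notch intracellular domain, the part of a Notch receptor that enters the nucleus and activates transcription. The labels give 1 cell line per genotype and no treatment, and nothing says that a knockout line is more than 1 clone or that the libraries are separate cultures. Besides the genotype, each title carries a p number that the labels do not explain, 35, 37 and 40 in wild type and 34, 36 and 39 in the knockout. No number is shared between the groups, each knockout number is 1 below a wild type number, and the sources used here do not say whether the deposited test took account of them. Their p-values therefore reflect library-to-library spread, which may be technical. The series title names Notch over-expression, the design text names dNICD cells, and the direction of every change below, knockout over wild type, follows the name of the authors' deposited table.

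STAT proteins wait in the cytoplasm until a Janus kinase on a cytokine receptor phosphorylates them, and then enter the nucleus as dimers. Stat2 joins Irf9 and a further STAT in ISGF3, the complex that binds interferon-stimulated response elements after type I interferon. IRF proteins bind related elements through a tryptophan-rich domain. Irf3 and Irf7 are switched on by kinases downstream of nucleic acid sensors and induce the interferon genes, and several IRF and STAT genes are themselves induced by interferon.

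The authors' deposited table gives a gene's mean normalised count over the libraries, the log2 fold change between groups (log2FC) with an SE, its standard error, and an adjusted p from DESeq2, called here under 0.05. Single-library values were not used here, so no spread within a group can be shown and the depth of each library is unknown. The level of a group is instead a fitted value, worked out from mean and fold change with 3 libraries per group, in normalised counts per library, and intervals are 95% Wald intervals. All 9 genes had a mean of at least 100, from 366 for Irf5 to 3701 for Irf7 per the authors' deposited table, and SEs from 0.12 to 0.22 against a median of 0.16 over the 10479 genes at that level. Beside the labels, Notch1 fell 3.43-fold and the Notch target Nrarp 79.3-fold per the authors' deposited table. That table does not separate RNA of an introduced Notch fragment from that of the gene. Of the other Notch pathway genes read with them, Notch3 and Heyl fell 31.8-fold and 1610-fold, and Rbpj rose 2.58-fold, per the authors' deposited table. These genes were chosen with earlier results of these data known, so they are no independent check of the labels.

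Of these, 5 genes, Irf7, Stat2, Irf5, Irf9 and Irf1, were higher in the knockout, and Irf3 and Stat3 were lower. Stat6 and Irf2 did not pass. That makes 7 of 9 members called, against 50.5% of all 14470 tested genes per the authors' deposited table. By direction, 5 of 9 were higher against 25.4% of all genes, and 2 of 9 were lower against 25.1%. The median log2FC of the 9 was 0.97, beside 0.02 over all tested genes. A Wald test against a 2-fold limit was passed by 4 of 9 (Irf7, Stat2, Irf5, Irf9), against 11.1% of all genes. The same 4 passed a Bonferroni adjustment, which 21.9% of all genes passed.

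**Figure D1:**
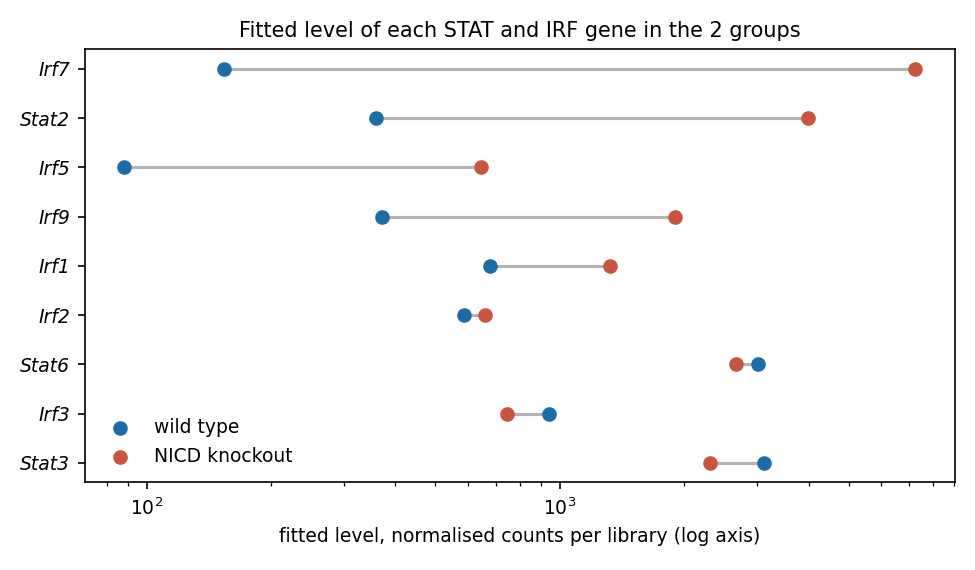
Fitted level of each gene in wild type (blue) and NICD knockout (red), in normalised counts per library on a log axis, with a line joining the 2 values of a gene. Irf7 spans from 154 to 7247, while the 2 values of Irf2, Stat6, Irf3 and Stat3 lie close together.

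Irf7, the factor that amplifies interferon production once it has been induced, had the steepest rise. Its fitted level was 154 in wild type and 7247 in the knockout. The authors' deposited table puts the change at 47.2-fold (log2FC 5.56, SE 0.20, adjusted p = 2.67e-168), with a log2FC interval of 5.17 to 5.95. Among all tested genes Irf7 ranked 256 from the top, so that 1.76% of genes had a larger log2FC. The gene Phrf1 on the opposite strand shares 1.19% of the annotated exonic bases of Irf7 and had a log2FC of 0.13 (adjusted p = 0.403) per the authors' deposited table. The promoter of the steepest member is shown as RefSeq gives it, the 250 bases before the start site at chr7:141266425-141266674 (GRCm38.p6, minus strand), in lower case throughout because none of the 4 motifs searched (interferon response, STAT dimer, kappaB-like and Rbpj) matched in it.
Irf7 promoter: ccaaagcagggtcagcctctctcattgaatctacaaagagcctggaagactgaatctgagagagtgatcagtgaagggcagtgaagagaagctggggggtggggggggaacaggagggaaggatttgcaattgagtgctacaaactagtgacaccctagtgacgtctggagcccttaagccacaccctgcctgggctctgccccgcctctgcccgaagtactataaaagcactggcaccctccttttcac

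Irf9 and Stat2, the subunits of ISGF3 among the members, both rose. Stat2, the subunit that carries the activation domain, went from a fitted 359.6 to 3996, a rise of 11.1-fold per the authors' deposited table (log2FC 3.47, SE 0.22, adjusted p = 6.43e-57). Irf9, which provides the DNA contact of the complex, moved from 372.0 to 1901, or 5.11-fold (log2FC 2.35, SE 0.15, adjusted p = 1.86e-50 per the authors' deposited table). Their intervals, 8.30 to 14.9-fold for Stat2 and 4.14 to 6.31-fold for Irf9, did not overlap, although the difference between the genes was not tested. Irf9 shares 2.28% of its exonic bases with Rnf31 on the same strand, which itself rose with a log2FC of 1.02 per the authors' deposited table. No other annotated gene shares exonic bases with Stat2.

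Irf5, a factor downstream of Toll-like receptors and best known from myeloid and B cells, went from a fitted level of 88.3 in wild type to 643 in the knockout. This was a 7.29-fold rise per the authors' deposited table (log2FC 2.87, SE 0.22, adjusted p = 3.43e-38). The opposite strand gene Tnpo3 shares 14.1% of the exonic bases of Irf5 and went the other way, with a log2FC of -0.66 per the authors' deposited table. The 10 expressed protein-coding genes on each side of Irf5 on chromosome 6 had a median of -0.65, also against the direction of Irf5. Because Irf5 is abundant in leukocytes, their markers were read beside it. Of 18 leukocyte markers, 10 were tested, with 4 higher and 1 lower per the authors' deposited table, beside 25.4% and 25.1% of all genes. The summed fitted level of these markers was 425.9 in wild type and 2589 in the knockout. Cd68, a lysosomal glycoprotein of macrophages that is not limited to them, stood at 179 and 2238 and made up most of the sum in the knockout. The pan-leukocyte gene Ptprc had a mean of 8.73 and did not pass (adjusted p = 0.302 per the authors' deposited table), and 8 others, among them Itgam, Adgre1, Cd3e and Tyrobp, were not tested. The part of other cells in the rise of Irf5 was not tested, and in bulk RNA a change in the share of a cell type and a change of RNA per cell cannot be told apart.

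Irf1, an activator that interferon gamma induces within hours, rose less. Its fitted level was 676 in wild type and 1324 in the knockout, a 1.96-fold change per the authors' deposited table (log2FC 0.97, SE 0.22, adjusted p = 6.62e-05). The interval, 1.44 to 2.66-fold, includes 2-fold. Irf2, which occupies the same elements as Irf1 and opposes it at many of them, stood at 587 and 659.6, with a log2FC of 0.17 (interval -0.20 to 0.53, adjusted p = 0.477 per the authors' deposited table). The intervals of Irf1 and Irf2 met at their edges, 0.529 being the lower bound of Irf1 and 0.535 the upper bound of Irf2 on the log2 scale. Whether the pair changed differently was not tested.

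Irf3, the constitutive factor that Tbk1 phosphorylates after viral nucleic acid is sensed and a close relative of Irf7, was slightly lower. Fitted levels were 940.9 in wild type and 743 in the knockout, a fall of 1.27-fold per the authors' deposited table (log2FC -0.34, SE 0.12, adjusted p = 0.0115). The divergent gene Bcl2l12 shares 2.56% of the exonic bases of Irf3 and also fell, by 0.67 on the log2 scale per the authors' deposited table. After the median of its neighbours on chromosome 7 (-0.10) was subtracted, Irf3 no longer passed (log2FC -0.24, adjusted p = 0.0831). The intervals of Irf3 and Irf7 lay far apart, -0.58 to -0.10 against 5.17 to 5.95 in log2FC.

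Stat3 and Stat6, which serve the Il6 family and the Il4 and Il13 receptors, stood apart from Stat2. Stat3 had fitted levels of 3114 in wild type and 2307 in the knockout, a 1.35-fold fall per the authors' deposited table (log2FC -0.43, SE 0.18, adjusted p = 0.0325). The genes around it on chromosome 11 had a median of 0.32, and with this subtracted the fall of Stat3 was larger (log2FC -0.75, adjusted p = 1.14e-04). Centred on the median of expressed genes, Stat3 did not pass (log2FC -0.38, adjusted p = 0.0614). Stat6 stood at 3020 and 2670, with a log2FC of -0.18 (interval -0.41 to 0.05, adjusted p = 0.205 per the authors' deposited table). Nab2 on the opposite strand, which shares 0.91% of the exonic bases of Stat6, did not pass either (log2FC -0.25 per the authors' deposited table).

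**Figure D2:**
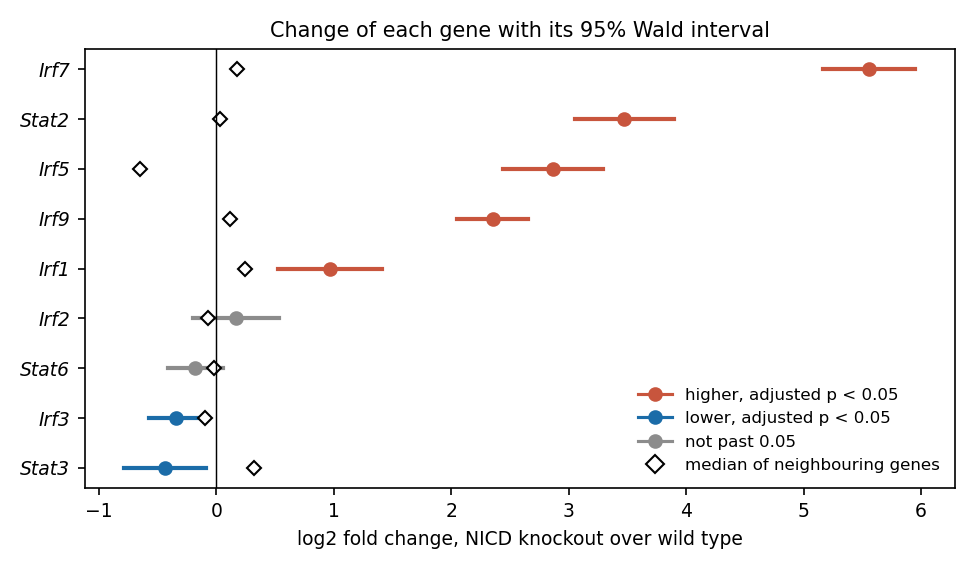
Log2 fold change of each gene, knockout over wild type, with its 95% Wald interval (points and bars coloured by call) and the median of the 10 expressed protein-coding genes on each side (diamonds). The 5 genes called higher lie to the right of their diamonds, and the diamond of Irf5 is at -0.65.

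In order of change, from Irf7 through Stat2, Irf5, Irf9, Irf1, Irf2, Stat6 and Irf3 to Stat3, the intervals of adjacent genes overlapped except at 2 places. Irf7 stood clear of Stat2, and Irf9 clear of Irf1. Stat2 and Irf5 overlapped, as did Irf5 and Irf9. The medians of the neighbouring genes were between -0.10 and 0.32 for 8 of the members and lower only for Irf5.

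**Figure D3:**
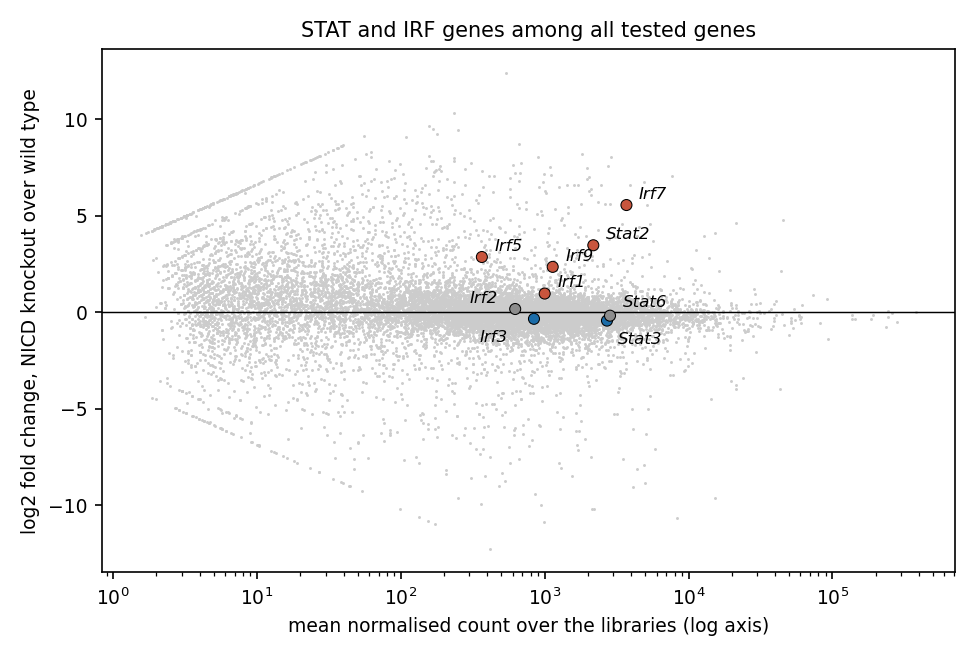
Log2 fold change, knockout over wild type, against mean normalised count on a log axis for all tested genes (grey) and the 9 members (red higher, blue lower, dark grey not past an adjusted p of 0.05). Irf7, Stat2, Irf5 and Irf9 lie above the bulk of genes of like expression, and Irf2, Irf3, Stat3 and Stat6 within it.

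RefSeq gives promoter windows, 250 bases before to 50 after a start site, for all 9 members. They were searched on both strands for the core of the interferon-stimulated response element (GAAANNGAAA), the gamma activated site bound by STAT dimers (TTCNNNGAA), a kappaB-like site (GGGNNTTCC) and the Rbpj site of Notch signalling (GTGGGAA). The first matched in Stat2 and Irf2, the second in Irf1 and Irf2, the third in Irf2 and the fourth in Irf3. Among 10850 genes of the table with a window, 3.84% hold the response element, 8.58% the gamma activated site, 8.35% the kappaB-like site and 7.47% the Rbpj site. Over all 32851 windows these shares were 3.44%, 8.30%, 5.82% and 6.38%. Among 17 interferon-stimulated genes of the ISGF3 class with a window, 11 (64.7%) hold the response element. The stretches around the interferon-linked matches are shown because the 3 genes that hold them had different outcomes: Stat2 rose 11.1-fold, Irf1 rose 1.96-fold, and Irf2, with both kinds of match 7 bases apart, did not pass. Capitals mark the matches, all sequences are on the gene's strand (plus), and the build is GRCm38.p6.
Stat2, chr10:128270248-128270320, response element on the minus strand from 222 bases before the start site: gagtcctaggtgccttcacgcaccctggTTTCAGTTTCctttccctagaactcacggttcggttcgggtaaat
Irf1, chr11:53769889-53769967, gamma activated site from 90 bases before the start site: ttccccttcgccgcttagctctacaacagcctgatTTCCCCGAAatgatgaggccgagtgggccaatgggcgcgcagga
Irf2, chr8:46739495-46739564, response element from 241 and gamma activated site from 224 bases before the start site: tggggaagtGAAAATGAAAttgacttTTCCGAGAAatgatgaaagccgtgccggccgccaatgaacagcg

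The ligands, receptors and kinases that lie upstream of STATs were read list by list. Only 2 of 18 interferon genes were tested. Ifnb1, the interferon beta gene that Irf3 and Irf7 induce, passed as higher at a mean of 4.21 per the authors' deposited table (adjusted p = 0.00521). Wild type was fitted under 1 normalised count per library and the knockout at 8.23. With wild type set at that floor (3 counts over the group), the knockout fit was 8.23-fold higher. The log2FC of Ifnb1 was 5.41 (SE 1.75) per the authors' deposited table, with a wide interval of 1.99 to 8.84. Ifnb1 did not pass the test of a change above 2-fold (adjusted p = 0.0952). Ifnz, at a mean of 4.07, did not pass (adjusted p = 0.5998 per the authors' deposited table). Among 14 receptors that signal through STATs, 8 were lower and 3 higher per the authors' deposited table, with a median log2FC of -0.90. For this list and those that follow, the shares over all tested genes are 25.1% lower and 25.4% higher. Both chains of the type I interferon receptor fell, Ifnar1 by 1.48 and Ifnar2 by 1.57 on the log2 scale, and so did the interferon gamma receptor chain Ifngr2, by 1.85, per the authors' deposited table. These genes lie near each other, and the medians of their neighbours were -1.14, -1.26 and -1.12. With the neighbours subtracted, Ifnar1 did not pass (log2FC -0.35, adjusted p = 0.102), while Ifnar2 (-0.30, adjusted p = 0.0271) and Ifngr2 (-0.73, adjusted p = 2.995e-08) did. Il10rb, a chain of the Il10 receptor named after its value was seen, lies in the same cluster and turned from a log2FC of -0.81 per the authors' deposited table to 0.46 with the neighbours subtracted (adjusted p = 0.00785). Lifr, a receptor of the Il6 family, fell 8.39-fold per the authors' deposited table, where its neighbours had a median of 0.07.

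The 4 Janus kinases had 1 member higher and 1 lower per the authors' deposited table, which is the share over all genes (25.4% and 25.1%). Jak1, which serves interferon and Il6 family receptors, fell with a log2FC of -0.72, and Tyk2, its partner at the type I interferon receptor, rose with 0.50, per the authors' deposited table. Jak2 and Jak3 did not pass, at log2FCs of 0.19 and -0.39 per the authors' deposited table. Inhibitors of the pathway had 5 of 17 members higher (29.4%) and 7 lower (41.2%) per the authors' deposited table (median 0.07), against 25.4% and 25.1% of all genes, so that the share of higher members was near the background. Usp18, an interferon-induced protease that binds the receptor chain Ifnar2 and damps signalling, rose 121.8-fold, from a fitted 32.1 to 3903, per the authors' deposited table. Ptpn2, a phosphatase of STATs and Janus kinases, rose 1.93-fold, whereas Socs5 and the phosphatase gene Ptpn1 fell 3.83-fold and 2.29-fold per the authors' deposited table. The neighbours of Ptpn2 and Socs5 had medians of 0.63 and -0.78, in the direction of each gene. With these subtracted Ptpn2 no longer passed (log2FC 0.31, adjusted p = 0.0909), and Socs5 still did (log2FC -1.16, adjusted p = 7.28e-24).

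Upstream of the IRFs, 15 of 23 tested sensors, adaptors and kinases were higher (65.2%, against 25.4% of all genes) and 4 lower (17.4%, against 25.1%) per the authors' deposited table (median log2FC 0.60). The RNA sensors Ddx58, Ifih1 and Dhx58 rose 7.81-fold, 7.59-fold and 48.2-fold, and the Z-nucleic acid sensor Zbp1 rose 185.6-fold, per the authors' deposited table. All of these are themselves interferon-inducible. Tbk1 and Ikbke, the kinases of Irf3 and Irf7, rose 1.53-fold and 2.40-fold per the authors' deposited table and were named after their values were seen. The 4 lower members, named after their values were seen, were Ticam1, Traf3, Irak1 and Chuk, with log2FCs of -0.73, -0.76, -0.35 and -0.39 per the authors' deposited table. Of these, Chuk alone still passed as lower with the neighbours subtracted (log2FC -0.40, adjusted p = 0.00336). Traf3 fell less than its neighbours, whose median was -1.11, which left a log2FC of 0.35 after subtraction (adjusted p = 0.0142). Ticam1 (neighbour median -0.49) and Irak1 did not pass (adjusted p = 0.152 and 0.476). Among the higher members, Mavs and Irak2 no longer passed with the neighbours subtracted (log2FC 0.22 for each, adjusted p = 0.173 and 0.289). Azi2 and Tlr4, not past before, then passed as higher (adjusted p = 0.0367 and 0.0396).

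**Figure D4:**
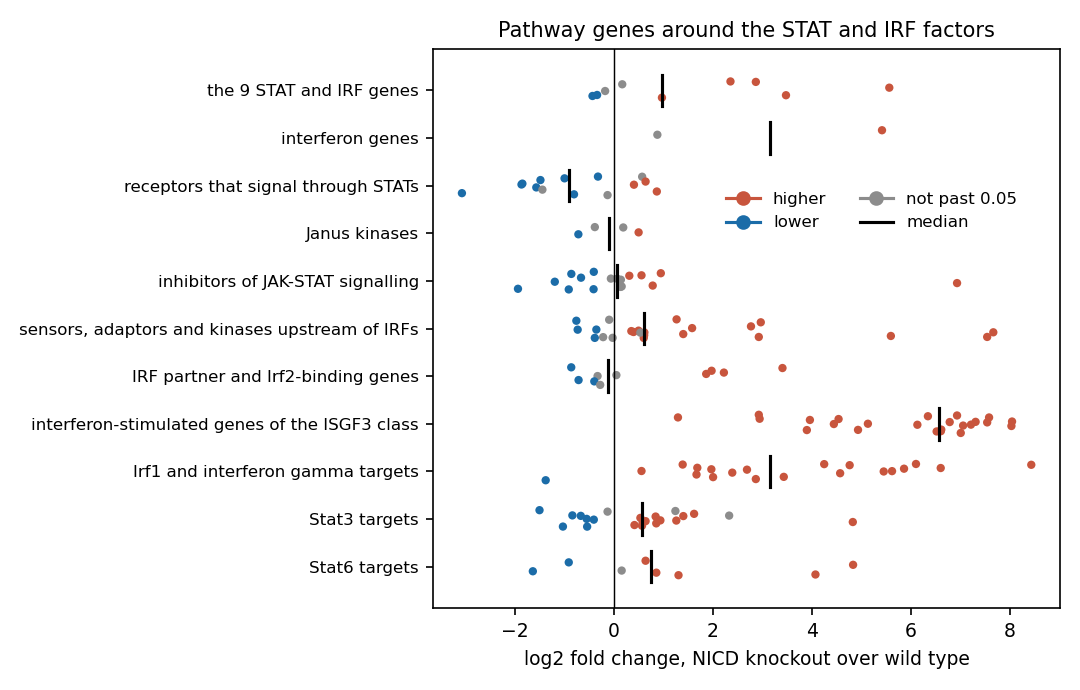
Log2 fold change, knockout over wild type, of every tested gene in 10 pathway lists and of the 9 members (red higher, blue lower, grey not past an adjusted p of 0.05; black bars are medians), with Ifnb1 at its fitted value. The ISGF3 targets have a median of 6.56, and the receptors that signal through STATs one of -0.90.

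Targets were read by the factor that they are known for. All 24 interferon-stimulated genes of the ISGF3 class were higher per the authors' deposited table, with a median log2FC of 6.56, larger than that of Stat2 or Irf9 themselves. Oas1a and Ifit1, antiviral effector genes, rose 97.0-fold and 109.9-fold per the authors' deposited table, and both have close copies that can share reads. Among targets of Irf1 and interferon gamma, 19 of 20 were higher and 1 lower per the authors' deposited table (median 3.15). The chemokine gene Cxcl10 rose 96.9-fold, the guanylate-binding protein genes Gbp3 and Gbp2 rose 49.0-fold and 23.7-fold, and the immunoproteasome gene Psmb8 rose 27.1-fold per the authors' deposited table. The exception was Wars, a tryptophan tRNA synthetase gene, which fell by 1.38 on the log2 scale per the authors' deposited table beside a neighbour median of -0.99, and it did not pass with that subtracted (log2FC -0.39, adjusted p = 0.216). Several genes of these lists respond to more than 1 of the factors, so the lists do not separate them.

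Stat3 targets went both ways, with 12 of 22 higher (54.5%, against 25.4% of all genes) and 7 lower (31.8%, against 25.1%) per the authors' deposited table (median 0.57). Pim1, a kinase gene, rose 3.07-fold, while Hif1a, Timp1 and Tnfrsf1a fell 2.83-fold, 1.79-fold and 2.04-fold per the authors' deposited table. Socs3, the feedback inhibitor that Stat3 induces, was named after its value was seen and had a log2FC of -0.41 (adjusted p = 0.0324 per the authors' deposited table). On the higher side, Bcl3, Cebpb and Bcl2l1 rose 2.64-fold, 1.92-fold and 1.81-fold per the authors' deposited table. They too were named after their values were seen. Of 17 Stat6 targets, 8 were tested, with 5 higher (62.5%, against 25.4% of all genes) and 2 lower (25.0%, against 25.1%) per the authors' deposited table. The alternative activation genes Arg1, Chil3 and Retnla were not tested. Klf4 rose 16.8-fold and Vcam1 2.47-fold, and Socs2 fell 1.88-fold, per the authors' deposited table.

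The labelled cell type was read from its own markers. Of 9 tested mesenchymal markers, 5 were lower and 3 higher per the authors' deposited table, beside 25.1% and 25.4% of all genes, and their summed fitted level was 303662 in wild type and 149160 in the knockout. Vim, an intermediate filament gene with a mean normalised count of 82338, fell 1.47-fold, and Fn1, the fibronectin gene with a mean of 92643, fell 2.61-fold, per the authors' deposited table. The collagen gene Col3a1 fell 9.50-fold and the growth factor receptor gene Pdgfrb 8.11-fold per the authors' deposited table. Col1a1, a collagen gene with a mean of 19458, fell 3.83-fold per the authors' deposited table. The 3 higher markers were S100a4, a calcium-binding protein gene with a mean of 8577, Pdgfra and Col1a2. These rose 3.44-fold, 5.14-fold and 2.41-fold per the authors' deposited table, Col1a2 at a mean of 26.5. Vim, Col1a1, Pdgfra and Col1a2 were named after their values were seen. With the neighbours subtracted Vim did not pass (adjusted p = 0.1496). Among 8 tested adipocyte markers, 4 were higher and 2 lower per the authors' deposited table, beside 25.4% and 25.1% of all genes. The fatty acid binding protein gene Fabp4 rose 70.3-fold, from a fitted 4.37 to 307, per the authors' deposited table. Plin4, which coats lipid droplets, rose 21.1-fold, Pnpla2, a triglyceride lipase, rose 2.29-fold, and Lpl, lipoprotein lipase, fell 5.38-fold, per the authors' deposited table. Adipoq, Lep and Plin1 were not tested, and Pparg, the adipocyte master regulator, had a mean of 9.42 and did not pass (adjusted p = 0.0542 per the authors' deposited table). Endothelial markers had 1 of 6 lower and none higher, with a summed fitted level of 129.5 in wild type and 102.7 in the knockout. Of 6 epithelial markers only Krt8 and Krt14 were tested, 1 higher and 1 lower per the authors' deposited table, with a summed fitted level of 45.9 and 66.6. The part of these cell types in the changes of the 9 genes was not tested.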

How the data were processed

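The labels place 3 libraries in each genotype group. For the work of the authors, Salmon, DESeq2 and the mm39 build appear in the submitters' processing notes, without versions or settings. The authors deposited 1 table with, per the file headers, a mean count divided by size factors (a signal that is never negative), a log2 fold change and its standard error, the Wald statistic (a score), a p-value and its adjusted form. The last 3, recomputed from the other columns, differed by 1.56e-13 at most, and 2 rows have no p-value. The calls are those of the authors' deposited DESeq2 test over all 14470 genes. Without counts, the planned edgeR test was left out.

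Fitted levels, Wald intervals, the test of a change above 2-fold (two-sided), Bonferroni adjustment and neighbour medians were computed in Python 3.11.15 with numpy 2.4.6, pandas 2.3.3 and scipy 1.17.1, checked on simulated data. Neighbours are the 10 nearest protein-coding genes on each side whose mean reaches 100, in GENCODE M21 order (GRCm38, 99.9% of tested rows matched). Tests with the neighbours subtracted kept the SE of the gene alone. The spread among neighbours does not enter their adjusted p, which is therefore too small. Exonic overlaps come from the same annotation. The comparison of protein sequences planned was not run.

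The members and 15 gene lists were chosen with earlier results of these data known, and are described without a test. All 9 members are named, as are the 4 genes with the smallest p of each list and all of a list of up to 7, as far as their role is described. Other tested genes of the lists, among them Ptprc, Pparg, Wars, Irf2bp1, Irf2bp2 and Batf3, were named after their values were seen. With a single comparison, no gene was named by likeness of pattern. Some other genes of these families and lists are not reported here.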

Additional observations from a re-analysis of the deposited data

How the results depend on the processing

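Of the 7 members past the threshold, 4 passed under Bonferroni adjustment and 4 in the test of a change above 2-fold. The count of lower members went from 2 to 0 under both of these, to 1 when centred on expressed genes (a median of -0.05) and to 1 with the neighbour median subtracted. Irf1 had a Bonferroni-adjusted p of 0.234. Irf7, Stat2, Irf5 and Irf9 passed as higher under all 5 alternatives, and no member changed direction under any of them. Adjusting over genes with a mean of at least 100 changed no call among the members. No paired analysis was possible because single-library values were not used here, so the neighbouring p numbers of the titles (35 and 34, 37 and 36, 40 and 39) could not be tried as a block, and leaving out each replicate was not run for the same reason. Promoter matches in the members were the same in number with the 250 bases before the start site alone. The depth of single libraries is unknown, and the members' SEs of 0.12 to 0.22 set what small changes can be seen.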

Other observations

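Genes whose products bind IRFs also moved in both directions, with 4 of 10 tested higher and 3 lower per the authors' deposited table, beside 25.4% and 25.1% of all genes. Nmi and Ifi35, interferon-induced proteins that bind each other, rose 10.6-fold and 4.66-fold per the authors' deposited table. Batf2, a basic leucine zipper factor that partners with IRFs in immune cells, rose 3.64-fold per the authors' deposited table, with fitted levels of 61.0 in wild type and 222.0 in the knockout. Trim21, a ubiquitin ligase that acts on several IRFs, had a log2FC (log2 fold change, knockout over wild type) of 1.97, and the acetyltransferase genes Crebbp and Ep300, cofactors of Stat2 and Irf3, had -0.86 and -0.40 per the authors' deposited table. Irf2bpl, a relative of the corepressors that bind Irf2, fell 1.64-fold per the authors' deposited table, where its neighbours had a median of -0.49, and did not pass with that subtracted (log2FC -0.23, adjusted p = 0.084). Trim21, Crebbp and Ep300 were named after their values were seen. Irf2bp1, Irf2bp2 and Batf3 did not pass.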
